A study of Mus musculus with 18 samples.

Results

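Microglia and astrocytes sorted from the same 4 mice bred to lose Tgfb1 from microglia were compared with each other gene by gene, and each difference between these glial types was set beside the difference between microglia and astrocytes of control mice. The comparison used 8 of the 18 libraries of the study, 4 of KO microglia and 4 of KO astrocytes, one of each type per mouse. It covered 15365 of the 35869 genes listed, those with at least 1 TPM (a transcript level scaled to the length of the gene and to the total of the library) in 4 or more of the 8 libraries. At the edge of that rule, 3002 genes reached 1 TPM in exactly 4 libraries and 961 genes in 3, just outside it.

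All mice were C57BL/6 and had received 5 oral doses of tamoxifen at 180 mg/kg. KO mice were Cx3cr1CreERT2-Tgfb1fl/fl, so that tamoxifen activated a Cre recombinase made under the Cx3cr1 gene and directed at floxed Tgfb1. Control mice carried Cx3cr1CreERT2 too and are given as WT, with 4 libraries of microglia and 5 of astrocytes. Cx3cr1 is active in microglia and also in other tissue macrophages and in some blood cells. The brains were dissociated with enzymes in the presence of transcription and translation inhibitors, and the cells were sorted by flow cytometry. The ages of the mice are not given in the sources used here. One further library, with a label that conflicts between the cell types, entered no comparison.

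Microglia are the resident macrophages of the brain, and astrocytes are neural cells that take up glutamate, carry gap junctions and line blood vessels. TGF-beta1 is a secreted cytokine that is held latent on cell surfaces until integrins release it. It signals through TGFBR1 and TGFBR2 to SMAD proteins, and in the adult brain this signal is known to maintain the homeostatic gene programme of microglia. The question of the comparison was which differences between microglia and astrocytes remain when Tgfb1 is targeted in microglia, and which differences appear, disappear or change sides.

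The KO microglial libraries listed 12903 to 13127 genes at 1 TPM or more, and the KO astrocyte libraries 14674 to 15484. Log2 levels correlated between libraries of one group with r of 0.986 to 0.992 in KO microglia and 0.970 to 0.985 in KO astrocytes. The KO astrocyte libraries were the more mixed group. Pan-myeloid genes summed to 1095.3, 117.0, 364.6 and 249.6 TPM in KO astrocytes of mice 1 to 4, and mouse 1 thus held 2.42% of the mean sum in KO microglia, against 0.229% to 0.502% in control astrocytes. Mural and fibroblast-like markers summed to 6896.6, 830.5, 10395.8 and 3889.9 TPM in the same 4 libraries, against 250.7 to 3452.9 TPM in control astrocytes. Astrocyte markers in KO microglia came to 1.18% to 1.42% of their level in KO astrocytes. Xist RNA was present in all 4 KO mice and in control mice 1 and 2, and the other controls had Y-linked RNA, so the genotypes differed in the sex of the mice. In sorted bulk samples, fewer cells of a type and less RNA per cell cannot be told apart.

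The targeted gene was measured first. Tgfb1 (GRCm38 7:25687002-25705077, forward strand) was listed at 1.8, 1.3, 1.7 and 2.0 TPM in KO microglia of mice 1 to 4 and at 0.3, 0.2, 0.0 and 0.1 TPM in their astrocytes. The control libraries held 3.4, 2.9, 2.9 and 2.8 TPM in microglia and 0.0 to 0.1 TPM in astrocytes. Every KO microglial library thus lay below every control microglial library, and above every astrocyte library. The values count reads over the whole gene, and whether they came from recombined transcripts was not tested. KO microglia still exceeded KO astrocytes by 1.23 ± 0.14 (log2 difference ± SE; limma adjusted p = 2.54e-05; exact two-sided permutation p = 0.0286, the smallest that 4 against 4 libraries allow). In controls the difference was 1.94, and the KO difference minus the control difference was -0.71 (limma adjusted p = 0.0132; 0.0615 with a block for the mouse).

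The markers of each cell type separated the libraries. Csf1r, the receptor through which microglia receive their survival signal, stood at 508.6, 540.9, 610.5 and 485.3 TPM in KO microglia and at 8.4, 0.4, 1.6 and 1.8 TPM in KO astrocytes, a log2 difference of 7.42 ± 0.48 (limma adjusted p = 6.05e-07). Slc1a2, the main glutamate transporter of astrocytes, stood at 1.3, 1.4, 1.0 and 0.7 TPM in KO microglia and 190.8, 426.3, 315.3 and 241.0 TPM in KO astrocytes, a difference of -7.08 ± 0.24. Neither gene overlapped between the groups. Aldoc, a glycolytic enzyme of astrocytes, was at 36.4, 26.5, 33.3 and 24.1 TPM in KO microglia and 3348.2, 4560.7, 3560.9 and 2637.3 TPM in KO astrocytes, a difference of -6.82 ± 0.18 (limma adjusted p = 9.74e-09). The fourth marker, Apoe, went the other way from controls. Apoe encodes the lipid carrier that astrocytes secrete in the healthy brain, and it was highest in KO microglia, with 8420.5, 7961.3, 9339.4 and 10084.3 TPM against 3800.9, 4955.9, 4598.4 and 3800.3 TPM in KO astrocytes. In controls the astrocytes held 6205.5, 6539.2, 4999.3, 5192.3 and 4849.0 TPM and the microglia 1310.1, 1336.4, 865.8 and 1829.3 TPM, so that the ranges did not overlap in either genotype but their order was exchanged.

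**Figure D1:**
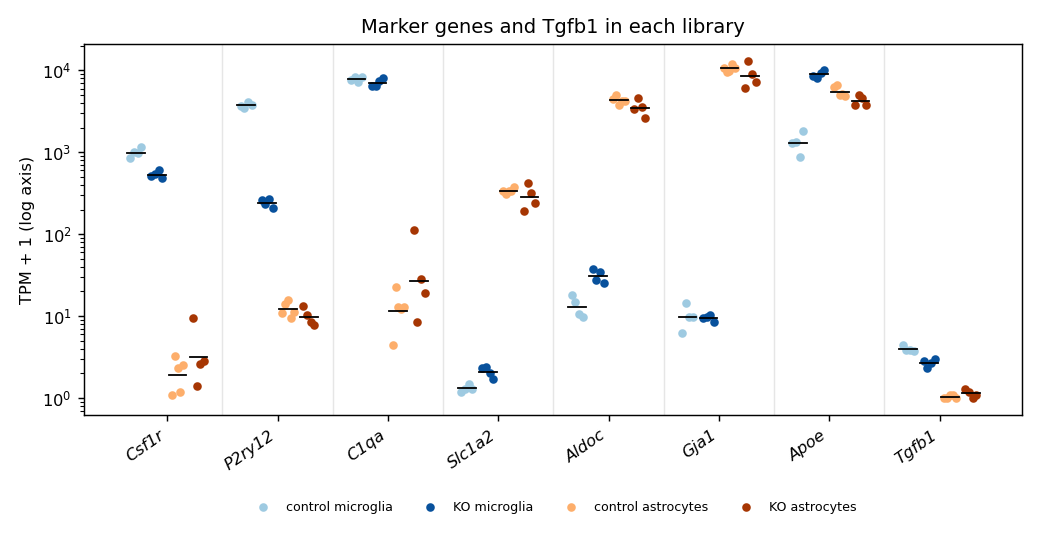
TPM + 1 on a log axis for Csf1r, P2ry12, C1qa, Slc1a2, Aldoc, Gja1, Apoe and Tgfb1 in microglia and astrocytes of control and KO mice; each point is a library and each black bar the mean on the log2(TPM + 1) scale. P2ry12 and Tgfb1 sit lower in KO than in control microglia, and for Apoe the KO microglia lie above the KO astrocytes while the control microglia lie below the control astrocytes.

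Of the 15365 genes tested in KO mice, 10657 (69.4%) differed between microglia and astrocytes at an adjusted p under 0.05 (limma on log2(TPM + 1), two-sided), 4058 of them higher in microglia (26.4%) and 6599 higher in astrocytes (42.9%). The levels of 10037 genes (65.3%) did not overlap between the 4 and the 4 libraries. Differences of at least 1 on the log2 scale were called for 2602 genes in microglia and 4462 in astrocytes, and differences of at least 5 for 256 and 437. The same test in controls called 10078 of 15332 genes (65.7%). The split between the sides depended on the scaling. The median gene difference in KO mice was -0.24. Quantile normalization, which moved that median to 0.10, gave 5847 genes higher in microglia and 5204 higher in astrocytes, and median-of-ratios scaling gave 4777 and 5909.

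Most differences were shared by both genotypes. The KO difference and the control difference had r = 0.93 over the 14548 genes tested in both, given as a description because the genes share libraries. A difference was taken to remain where it passed in both genotypes with one sign, and this held for 7987 genes (52.0% of those tested in KO), 2892 higher in microglia (18.8%) and 5095 higher in astrocytes (33.2%). The contrast, that is the KO difference minus the control difference, was tested over 17 libraries and passed for 1231 of these 7987 genes; the difference was smaller in KO mice for 735 and larger for 496. Among all genes tested in KO mice, the contrast passed for 2452 (16.0%), toward KO microglia for 1116 (7.26%) and away from them for 1336 (8.7%). These shares, with 26.4% of genes higher in KO microglia and 42.9% in KO astrocytes, are the background for the list counts below.

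Fewer genes changed class. A difference counted as new where it passed in KO mice, did not pass in controls and the contrast passed: 351 genes were new in KO microglia (2.28% of those tested in KO) and 270 in KO astrocytes (1.76%). A difference counted as lost where it passed in controls alone and the contrast passed, which held for 604 genes (3.94% of the 15332 tested in controls): 447 genes lost a difference toward microglia (2.92%) and 157 lost one toward astrocytes (1.02%). The sign was reversed, passing on both sides, for 53 genes now higher in KO microglia (0.345%) and 96 now higher in KO astrocytes (0.625%). Of the new microglial genes, 193 were below the level filter in controls, and of the lost microglial genes 157 were below it in KO mice. A further 1900 genes (12.4%) passed in KO mice but met none of these definitions, 762 of them higher in KO microglia (4.96%) and 1138 higher in KO astrocytes (7.41%).

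**Figure D2:**
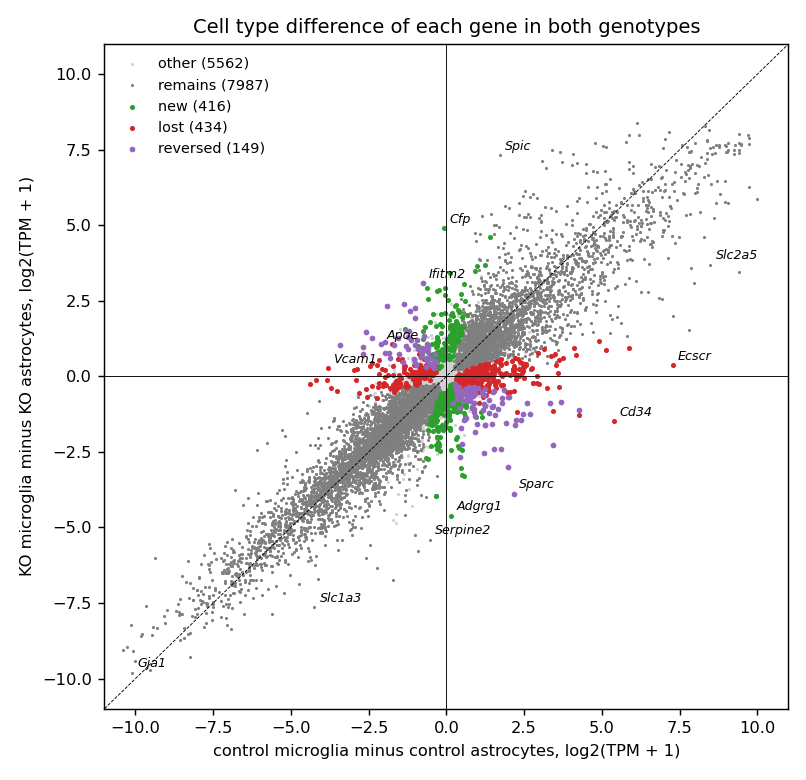
Each point is one of 14548 genes tested in both genotypes, with the control difference (microglia minus astrocytes, log2) on the horizontal axis and the KO difference on the vertical axis; the dashed line marks equality. Genes whose difference remains (7987) run along the line, the new genes (416 of them tested in both) are called on the vertical axis alone, the lost genes (434) on the horizontal axis alone, and the 149 reversed genes lie in the quadrants of opposite sign.

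For most new, lost and reversed genes, the change between genotypes passed in microglia alone. For 341 of the 351 new microglial genes the difference between KO and control passed in microglia and did not pass in astrocytes. The same held for 204 of 270 genes new in KO astrocytes, for 398 of 447 and 125 of 157 lost differences, and for 53 of 53 and 93 of 96 reversals. The change passed in astrocytes alone for 11 of the 270 genes new in KO astrocytes and for 5 of the 157 lost astrocyte differences. It passed in neither cell type for 7 of the 351 and 55 of the 270 new genes. The same was true of 47 of the 447 and 26 of the 157 lost differences. A change that did not pass in astrocytes, the more mixed libraries in KO mice, is not shown to be absent. Which cell type changed more was not tested. The KO and control libraries of each cell type are shared by these tests and by the contrast, so the counts describe the contrast and do not support it.

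On the microglial side the 8 largest differences were those of Ms4a4a, Ms4a6b, C3ar1, Ccl12, C1qa, Clec4a1, Pf4 and Fcrls. Ms4a4a (GRCm38 19:11375523-11392790, forward strand), a membrane protein of the MS4A family, led them at 1690.1, 2328.1, 2250.2 and 2010.2 TPM in KO microglia against 20.4, 2.0, 7.8 and 1.6 TPM in KO astrocytes, a log2 difference of 8.37 ± 0.59. Control microglia held 59.5, 66.5, 101.6 and 177.2 TPM, so the lowest KO library was several times the highest control library. The contrast was 2.23 (limma adjusted p = 0.0498), a call that was lost on leaving out any of 15 of the 17 libraries in turn (adjusted p up to 0.106) and kept without KO astrocytes of mouse 1, the library with the most myeloid RNA (2.83, adjusted p = 0.00324), and without control microglia of mouse 5. With a pseudocount of 0.1 TPM the contrast was 0.23 (adjusted p = 0.934). Ccl12, a chemokine that attracts monocytes, was at 8300.8, 7222.6, 7147.3 and 7144.9 TPM in KO microglia and 125.5, 13.6, 24.3 and 11.2 TPM in KO astrocytes. C1qa, a chain of the first complement component, was at 6507.5, 6367.6, 7384.9 and 7967.1 TPM in KO microglia and 110.1, 7.5, 27.5 and 18.4 TPM in KO astrocytes, the highest astrocyte value again in mouse 1. The related Ms4a6b differed by 8.29, C3ar1, the receptor for complement fragment C3a, by 8.16, and the lectin Clec4a1 by 8.0. Pf4, the chemokine platelet factor 4, differed by 8.0, and the Fc receptor-like gene Fcrls by 7.97, against 6.2 and 9.71 in controls. Neither contrast passed, though that of Fcrls did without KO astrocytes of mouse 2 (adjusted p = 0.0181) or control astrocytes of mouse 2 (0.0354). All 8 of these leading differences were also called in controls, so none of them is new.

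Genes shared by all myeloid cells kept the microglia apart from the astrocytes. All 40 pan-myeloid genes were tested and all 40 were higher in KO microglia, where 26.4% of all tested genes were. Their median difference was 6.52 in KO mice and 7.49 in controls, against medians of -0.24 and -0.19 over all genes. The contrast passed for 11 of them, in 10 toward a smaller difference in KO mice. The list summed to 44415.0 to 46111.4 TPM in KO microglia and 42286.8 to 45267.0 TPM in control microglia. In astrocytes it summed to 117.0 to 1095.3 TPM in KO mice and 100.7 to 221.2 TPM in controls. The part of myeloid RNA in astrocyte libraries in the smaller differences was not tested. Itgam, the complement receptor chain CD11b, was at 61.3, 52.2, 63.0 and 38.0 TPM in KO microglia and 1.3, 0.1, 0.0 and 0.1 TPM in KO astrocytes, and its difference fell from 7.83 in controls to 5.38. Cd37, a tetraspanin of blood cells, was at 38.1, 40.5, 47.6 and 42.4 TPM against 0.7, 0.2, 0.3 and 0.3 TPM, a difference of 4.98 against 7.12 in controls (contrast adjusted p = 2.34e-07). Inpp5d, the lipid phosphatase SHIP1, had a difference of 4.2 against 5.73. For Csf1r the control difference was 9.02 and the contrast did not pass (-1.6, adjusted p = 0.0867; -1.99 and 0.0219 without KO astrocytes of mouse 2, the library with the least myeloid RNA). For Itgb2, the beta chain that pairs with CD11b, the contrast of -1.54 passed (adjusted p = 0.0336) but not with a block for the mouse (adjusted p = 0.0566), nor on leaving out any of 9 of the 17 libraries (up to 0.0691).

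Promoters were read from RefSeq for 10743 of the 15365 genes tested, to show what sequence the leading myeloid genes carry next to their start sites. The letters GAGGAAGT form the core recognised by PU.1, the myeloid transcription factor encoded by Spi1. On either strand they occurred in 3.28% of all 27025 promoters of 300 bases, in 16.5% of the promoters of genes at least 5 log2 units higher in KO microglia (170 of the 256 had a promoter in the table), and in 1.32% of those at least 5 units higher in KO astrocytes (303 of 437). Of the 30 pan-myeloid genes with a promoter in the table, 5 held the letters (16.7%), and of 24 astrocyte markers none did. The 3 promoters below were taken in descending order of the KO difference from pan-myeloid genes that hold the letters in the 250 bases before the start site, with the match in capitals (ACTTCCTC on the opposite strand). They are the 250 bases before the start site, 5′ to 3′ along the gene: Vav1 at chr17:57278850-57279099 on the forward strand, Cd37 at chr7:45238840-45239089 on the reverse strand and Inpp5d at chr1:87620062-87620311 on the forward strand (GRCm38.p6). The match starts 11 bases before the start site in Vav1, 25 in Cd37 and 20 in Inpp5d. A match is a run of letters, and binding was not measured here.
Vav1: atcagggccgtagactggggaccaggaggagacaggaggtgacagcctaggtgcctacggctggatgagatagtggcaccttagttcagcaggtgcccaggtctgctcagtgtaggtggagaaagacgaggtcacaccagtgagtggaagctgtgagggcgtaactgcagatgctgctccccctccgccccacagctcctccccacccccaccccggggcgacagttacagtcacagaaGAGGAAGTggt
Cd37: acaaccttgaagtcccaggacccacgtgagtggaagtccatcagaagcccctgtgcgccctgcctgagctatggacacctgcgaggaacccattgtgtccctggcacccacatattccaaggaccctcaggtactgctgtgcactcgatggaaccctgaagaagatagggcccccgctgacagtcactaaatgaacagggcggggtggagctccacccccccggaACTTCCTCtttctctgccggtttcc
Inpp5d: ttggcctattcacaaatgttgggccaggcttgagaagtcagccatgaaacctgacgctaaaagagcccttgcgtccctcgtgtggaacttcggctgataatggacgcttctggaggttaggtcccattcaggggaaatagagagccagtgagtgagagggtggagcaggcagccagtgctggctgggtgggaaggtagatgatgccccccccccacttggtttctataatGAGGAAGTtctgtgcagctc

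Vav1, which encodes a guanine nucleotide exchange factor of blood cells and is named here because its promoter is shown, stood at 51.9, 58.3, 62.2 and 46.7 TPM in KO microglia and 1.1, 0.0, 0.1 and 0.2 TPM in KO astrocytes. Its difference was 5.43 in KO mice and 6.48 in controls. The groups did not overlap in either genotype.

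Myeloid transcription factors remained on the microglial side but less uniformly. Of 24 tested, 18 were higher in KO microglia (26.4% of all genes), 4 were lower (42.9%) and 2 did not pass. Their median was 2.30 against 2.91 in controls. Spi1, which encodes PU.1, was at 26.5, 21.1, 27.0 and 36.1 TPM in KO microglia and 0.7, 0.0, 0.3 and 0.1 TPM in KO astrocytes, and its difference of 4.50 was 4.55 in controls (contrast -0.05, adjusted p = 0.934). Irf5, a factor of inflammatory signalling, had a smaller difference in KO mice (3.80 against 4.77), and so had Mef2a (1.47 against 3.19), a factor that acts at microglial enhancers. Spic, a PU.1 relative that marks iron-recycling macrophages (GRCm38 10:88674772-88685015, reverse strand), went the opposite way. Spic stood at 271.8, 271.9, 231.5 and 219.4 TPM in KO microglia, 1.6, 0.2, 0.2 and 0.6 TPM in KO astrocytes and 1.7, 4.9, 1.0 and 5.1 TPM in control microglia. Every KO microglial library lay far above all others, and the difference grew from 1.72 to 7.31 (contrast adjusted p = 1.87e-07).

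Homeostatic microglial genes had a smaller lead over astrocytes in KO mice than in controls. Of 39 tested, 28 were still higher in KO microglia (26.4% of all genes), 5 were lower (42.9%) and 6 did not pass. In controls 36 had been higher in microglia (26.2% of all genes). Their median difference was 3.45 in KO mice and 7.28 in controls, and the contrast was negative for 30 of the 39 (8.7% of all genes tested) and positive for 1. By class, 29 differences remained, 6 were lost, 3 were reversed and 1, Adgrg1, was new toward astrocytes. P2ry12, the ADP receptor that guides microglial processes, was at 262.3, 232.0, 265.4 and 206.2 TPM in KO microglia, 12.4, 9.3, 7.5 and 6.7 TPM in KO astrocytes and 3684.4, 3440.6, 4100.6 and 3760.7 TPM in control microglia. KO microglia thus kept a difference of 4.63 ± 0.18 over their astrocytes, against 8.27 in controls (contrast -3.65, adjusted p = 2.63e-08). Slc2a5, a fructose transporter, stood at 14.4, 13.3, 14.7 and 14.4 TPM in KO microglia against 523 ± 31.1 TPM (mean ± SD, n = 4) in control microglia, and its difference went from 8.49 to 3.70.

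For Sall1, the transcription factor that keeps microglia from taking a general macrophage state, no difference between KO microglia and KO astrocytes was detected. Its levels were 10.7, 10.2, 10.5 and 15.8 TPM in KO microglia and 8.3, 18.1, 15.2 and 15.2 TPM in KO astrocytes, and these ranges overlapped, while control microglia held 123.0, 108.2, 122.3 and 128.8 TPM and control astrocytes 15.2, 13.9, 15.3, 13.7 and 17.8 TPM. The KO difference was -0.22 ± 0.24 (limma adjusted p = 0.433) against 2.91 in controls. The other 5 homeostatic genes whose difference was lost were Ecscr, Il7r, Cd34, Bin1 and Cst3. The 3 reversed were Sall3, Sparc and Rhob, of which Sall3 and Rhob are named here only to complete that count.

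Markers of border-associated macrophages, the macrophages of meninges and vessel walls, were mostly higher in KO microglia than in KO astrocytes. Of 18 tested, 17 were higher than in KO astrocytes (26.4% of all genes) and 1, Colec12, was lower. The median difference was 5.36 in KO mice and 4.15 in controls. The contrast was positive for 10 (7.26% of all genes tested) and negative for 2 (8.7%). Folr2, a folate receptor of such macrophages, was at 27.3, 25.9, 26.1 and 31.4 TPM in KO microglia and 0.7, 1.1, 0.8 and 0.3 TPM in KO astrocytes, against 5.4, 6.0, 3.8 and 9.3 TPM in control microglia. The lectin Clec10a was at 57.7, 65.9, 63.4 and 62.4 TPM in KO microglia and 0.5 to 1.7 TPM in KO astrocytes, with 6.3 to 18.9 TPM in control microglia. Clec12a, an inhibitory lectin of myeloid cells, had a difference of 5.27 in KO mice and 2.55 in controls (contrast adjusted p = 9.66e-05). The summed markers ran from 7873 to 8679 TPM in KO microglia, 1464 to 1883 TPM in control microglia and 54.8 to 278.5 TPM in KO astrocytes. Whether the KO microglial gate held more border macrophages was not tested.

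On the astrocyte side the identity genes stood apart in every mouse. All 30 astrocyte markers tested were higher in KO astrocytes, as were 42.9% of all tested genes, with a median difference of -6.89 against -7.84 in controls; negative values mean higher in astrocytes. Gja1 (GRCm38 10:56377330-56402513, forward strand), the gap junction protein connexin 43, had the widest gap of all, with 8.4, 8.9, 9.4 and 7.4 TPM in KO microglia and 6103.2, 13065.6, 9048.0 and 7271.7 TPM in KO astrocytes, a difference of -9.81 ± 0.21. F3, the coagulation initiator tissue factor, differed by -9.72, the serine protease Htra1 by -9.43 and the lipid phosphatase Plpp3 by -9.30. Atp1b2, a beta subunit of the sodium pump, differed by -9.07, the orphan receptor Gpr37l1 by -9.06, angiotensinogen (Agt) by -8.95 and the adhesion protein Hepacam by -8.72. These 8 leading differences were called in controls as well. The contrast passed for 12 of the 30 markers, in 11 toward a smaller difference in KO mice. Acsbg1, which activates fatty acids, went from -9.66 to -7.58, Aldh1l1, a folate enzyme widely used to mark astrocytes, from -7.78 to -5.90, and Gfap, the astrocyte intermediate filament, from -6.08 to -4.27 with 9.7, 7.9, 7.4 and 3.6 TPM in KO microglia and 126.2, 210.8, 169.4 and 110.4 TPM in KO astrocytes. For Gfap the contrast (adjusted p = 0.025) did not pass without KO astrocytes of mouse 4 (adjusted p = 0.0554) or without KO microglia of mouse 1 (0.0567).

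Slc1a3, the second glutamate transporter, had the one contrast of these markers that pointed the other way. KO microglia held 33.8, 39.3, 35.7 and 37.5 TPM and KO astrocytes 8715.0, 9526.2, 6919.6 and 5403.9 TPM, while control microglia held 274.9, 319.6, 608.3 and 480.8 TPM. The difference thus widened from -4.24 to -7.64 (contrast adjusted p = 2.88e-07), and every KO microglial library lay below every control microglial library. Of 15 genes of glutamate and GABA uptake and recycling, 14 were higher in KO astrocytes (42.9% of all genes) and 1 in KO microglia (26.4%). All 19 astrocyte transcription factors tested were higher in KO astrocytes, as were 42.9% of all tested genes. Sox9, a factor of the astrocyte lineage, differed by -8.32, and Nfia, a factor that starts astrocyte formation, by -2.40 against -1.53 in controls (contrast -0.87).

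The new differences toward KO microglia with the largest contrasts were those of Mmp13, Mir511 and Cfp. Mmp13 (GRCm38 9:7272514-7283331, forward strand), a collagenase, was at 593.4, 616.3, 665.6 and 410.5 TPM in KO microglia and 8.9, 1.2, 1.5 and 1.0 TPM in KO astrocytes, against 3.2, 0.0, 2.1 and 1.4 TPM in control microglia. Its KO difference was 7.45 ± 0.46 (limma adjusted p = 4.99e-07), and it was below the level filter in controls. Cfp (GRCm38 X:20925454-20931555, reverse strand), properdin, which stabilises the alternative complement convertase, was at 546.5, 745.6, 683.4 and 568.4 TPM in KO microglia and 24.1, 26.5, 23 and 11 TPM in KO astrocytes. In controls the ranges overlapped, with 26.3, 36.2, 16.2 and 25.2 TPM in microglia and 28.1, 35.6, 18.1, 28.8 and 24 TPM in astrocytes, a difference of -0.07 (adjusted p = 0.816). All 4 KO microglial libraries thus exceeded every other library of the study's 4 groups for Cfp.

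Aoah, an enzyme that detoxifies bacterial lipopolysaccharide, was at 71.0, 95.3, 96.0 and 77.6 TPM in KO microglia and 0.9, 0.1, 0.2 and 0.3 TPM in KO astrocytes, a difference of 5.99 (contrast 4.55). Dnase1l3, which digests DNA in chromatin, had a difference of 5.15 and the adaptor protein gene Dok2 one of 4.89, with contrasts of 4.63 and 3.99. The contrasts of all these genes passed. The inhibitory or activating receptors Cd300ld2 and Cd300ld5 had differences of 4.58 and 4.04, but they are close copies and the division of reads between them is uncertain. Mir511 was at 48.8, 60.0, 37.6 and 72.8 TPM in KO microglia and at 0.0 in all 4 KO astrocyte libraries. It is 79 bases long and lies in an intron of Mrc1 on the same strand (GRCm38 2:14261003-14261081), so its reads cannot be told from those of that macrophage receptor. Plin2, the coat protein of lipid droplets, was at 140.1, 156.3, 145.2 and 135.2 TPM in KO microglia and 35.1, 31.6, 40.7 and 28.0 TPM in KO astrocytes, and its difference of 2.07 was -0.18 in controls. Nfkbiz, a nuclear regulator of NF-kappaB targets, had a difference of 2.33 against 0.28.

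New differences toward KO astrocytes belonged to genes of varied function, and for 204 of the 270 the difference between KO and control passed in microglia alone. Adgrg1 (GRCm38 8:94974751-95014217, forward strand), the adhesion receptor GPR56, was at 0.7, 0.5, 0.6 and 0.3 TPM in KO microglia and 24.6, 51.3, 37.7 and 35.8 TPM in KO astrocytes. Control microglia held 38.9, 43.5, 40.6 and 48.5 TPM and control astrocytes 38.4, 32.4, 33.8, 43.2 and 46.6 TPM. In controls the cell types overlapped (0.15, adjusted p = 0.365), and in KO mice every microglial library lay below 1 TPM, a difference of -4.61. Sgk1, a kinase induced by glucocorticoids, was at 12.1, 12.5, 10.5 and 12.5 TPM in KO microglia and 73.0, 98.1, 108.6 and 330.0 TPM in KO astrocytes, the last of these, from mouse 4, standing well above the others. Its difference was -3.31 against 0.57 in controls. The stress response gene Nupr1 (-3.95 against -0.33), the catenin-like gene Ctnnal1 (-3.95 against -0.35) and Spsb1 (-3.03 against 0.48), an adaptor of ubiquitin ligases linked to TGF-beta receptor turnover, followed. Klhl23, the deubiquitinase gene Usp2 and the GTPase regulator Arhgap5 had KO differences of -2.38, -2.29 and -2.43. The number of genes in this class moved with scaling and with the mice: quantile normalization gave 157 genes, median-of-ratios scaling 179, and the fit without both libraries of KO mice 1 and 3, the mice with the most mural RNA, 85.

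The lost microglial differences with the largest contrasts were those of Ecscr, Cd34 and Tgm2. Ecscr, first described as an endothelial surface protein, was at 8.1, 1.6, 4.1 and 4.6 TPM in KO microglia and 9.5, 0.2, 6.3 and 1.7 TPM in KO astrocytes, against 603.7, 580.7, 474.5 and 523.5 TPM in control microglia. The KO groups overlapped, with a difference of 0.36 (adjusted p = 0.642) against 7.28 in controls. Cd34 (GRCm38 1:194938819-194961279, forward strand), a sialomucin of blood progenitors and endothelium, was at 15.1, 2.8, 4.4 and 3.3 TPM in KO microglia and 41.5, 4.3, 29.9 and 11.5 TPM in KO astrocytes, against 272.0, 278.1, 268.8 and 267.3 TPM in control microglia. Its KO difference of -1.48 did not pass (adjusted p = 0.077), but it passed toward astrocytes with a block for the mouse (adjusted p = 0.00591), without KO microglia of mouse 1 (-1.95, 0.0267) and without KO astrocytes of mouse 2 (-2.05, 0.0104). Endothelial markers summed to 1916.0, 540.8, 1284.5 and 649.9 TPM in the same KO astrocytes, the order in which Cd34 and Ecscr also ran, and the part of endothelial RNA in these values was not tested.

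Tgm2, a transglutaminase that crosslinks proteins, had a difference of -1.29 in KO mice that did not pass (adjusted p = 0.0688; 0.00842 with a block for the mouse, and 0.00379 without KO astrocytes of mouse 2) against 4.25 in controls. Il7r, a cytokine receptor chain, Klk8, a secreted protease, and Mlph, an organelle transport protein, were below the level filter in KO mice, with control differences of 5.35, 5.28 and 5.47. Their contrasts of -5.22, -4.75 and -4.69 passed.

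The lost astrocyte differences with the largest contrasts were those of Cd38, Vcam1 and Sdc4. Cd38 (GRCm38 5:43868553-43912375, forward strand), an enzyme that consumes NAD, was at 259.3, 387.0, 332.8 and 227.5 TPM in KO microglia and 301.9, 599.2, 343.9 and 239.0 TPM in KO astrocytes, against 7.5, 25.2, 18.3 and 31.0 TPM in control microglia. The KO groups overlapped, and the difference went from -4.39 to -0.24 (adjusted p = 0.456). Vcam1, an adhesion molecule for leukocytes, was at 574.6, 1155.3, 1138.1 and 875.8 TPM in KO microglia and 501.5, 1241.2, 798.5 and 638.2 TPM in KO astrocytes, against 25.2, 52.7, 53.2 and 110.4 TPM in control microglia. Sdc4, a heparan sulfate proteoglycan, was at 879.4, 878.4, 1020.7 and 958.3 TPM in KO microglia and 932.2, 1357.1, 990.5 and 832.4 TPM in KO astrocytes, against 61.8, 57.0, 66.4 and 75.8 TPM in control microglia. The KO ranges overlapped for both, and their differences of 0.26 and -0.12 replaced -3.82 and -4.2. The kinase gene Plk2 went from -3.85 to -0.12, the heparan sulfate enzyme gene Hs3st1 from -3.73 to -0.39 and the semaphorin Sema4a from -2.97 to 0.21, which passed toward KO microglia under quantile normalization (0.56, adjusted p = 0.0196). A p above the threshold does not show that the cell types had equal levels.

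**Figure D3:**
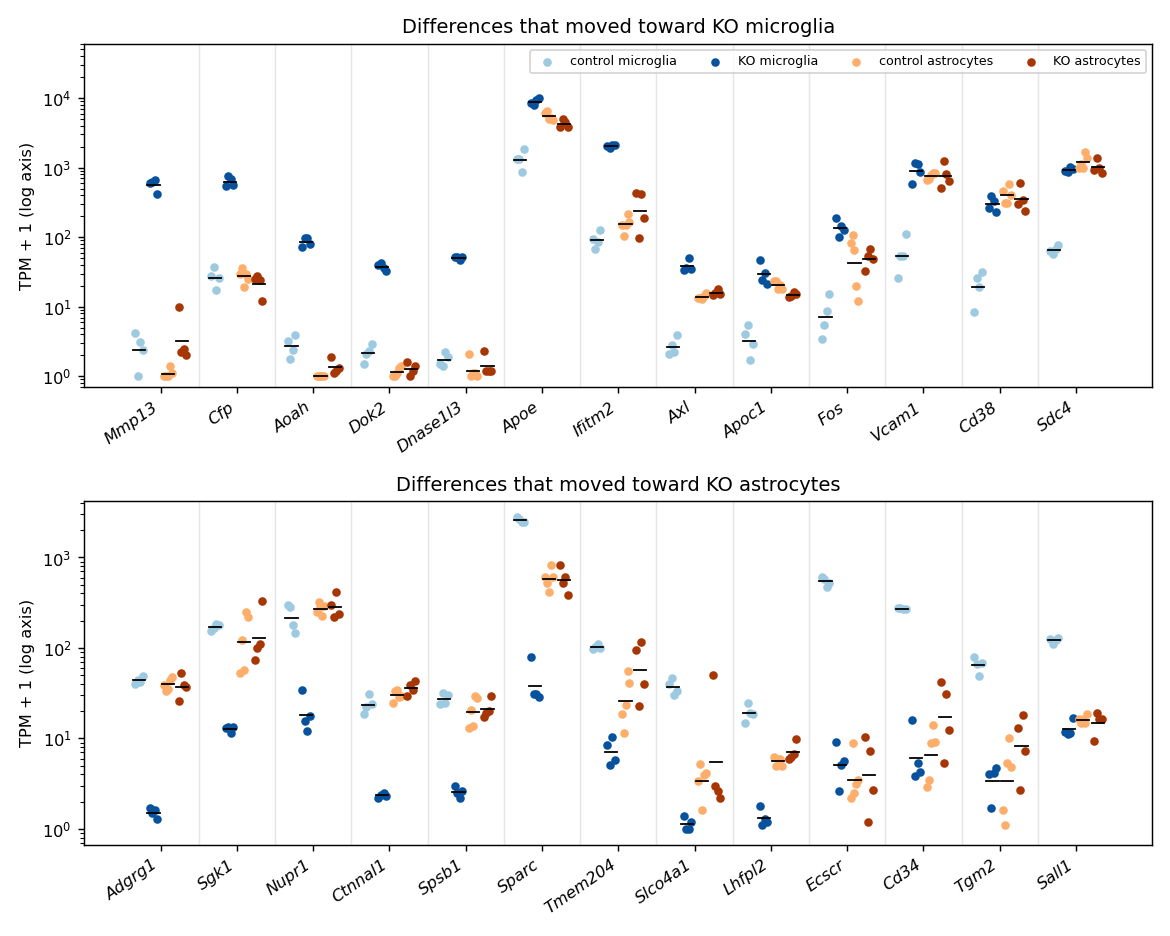
TPM + 1 on a log axis for 26 genes whose difference is new, lost or reversed, with one point per library of control and KO microglia and astrocytes. In the upper panel (Mmp13 to Sdc4) the KO microglia sit above the control microglia for every gene, and in the lower panel (Adgrg1 to Sall1) they sit below.

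The sign of the difference was exchanged for a small set. Of the 149 reversed genes, 75 kept this class under quantile normalization and 110 under median-of-ratios scaling. Toward KO microglia, Fos, an immediate-early transcription factor, was at 186.1, 100, 145.5 and 126.6 TPM in KO microglia and 31.6, 53.2, 66.8 and 47.5 TPM in KO astrocytes, against 2.4, 4.4, 7.8 and 14.4 TPM in control microglia and 82.6, 104.9, 64.3, 18.8 and 11.2 TPM in control astrocytes. The control astrocyte libraries varied widely for Fos and overlapped the control microglia, but the KO groups did not overlap. The Fos difference went from -2.59 to 1.48, with a contrast of 4.07 (adjusted p = 0.00222; 0.0615 without KO mice 1 and 3). Axl, a receptor kinase for engulfing dead cells, was at 33.2, 35.6, 49.2 and 34.0 TPM in KO microglia and 14, 14.9, 16.9 and 14.1 TPM in KO astrocytes, against 1.1, 1.8, 1.2 and 2.9 TPM in control microglia, a difference of 1.27 in place of -2.38. Apoc1, a lipoprotein component whose gene neighbours Apoe (Apoc1 at GRCm38 7:19689481-19692660 and Apoe at 7:19696109-19699188, both on the reverse strand), went from -2.67 to 0.97 (adjusted p = 0.00354; 0.0715 without KO mice 1 and 3). For Apoe the KO difference was 1.07 ± 0.12 in place of -2.09 (contrast 3.16, adjusted p = 1.12e-07). Shcbp1, a protein of dividing cells, went from -1.37 to 2.38. Mir7011 went from -3.41 to 1.05, but it is 73 bases long and overlaps an exon of Sema4a on the same strand (GRCm38 3:88440879-88440951), so its reads cannot be told from those of Sema4a.

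Toward KO astrocytes, Sparc (GRCm38 11:55394500-55423183, reverse strand), a secreted collagen-binding protein, was at 78.9, 29.8, 29.7 and 27.8 TPM in KO microglia and 819.5, 521.2, 614.0 and 388.1 TPM in KO astrocytes. Control microglia held 2796.4, 2628.3, 2470.2 and 2488.7 TPM and control astrocytes 605.3, 527.0, 411.1, 824.3 and 603.6 TPM. Microglia and astrocytes did not overlap in either genotype, and the difference turned from 2.16 to -3.88 (contrast -6.04). The membrane protein genes Tmem204 (1.99 to -2.99) and Lhfpl2 (1.77 to -2.40) and the sulfotransferase gene Gal3st4 (3.69 to -0.86) were reversed too. Gal3st4 did not pass in KO mice under quantile normalization (-0.42, adjusted p = 0.144) or without KO mice 1 and 3 (-0.86, 0.134). Slco4a1, an organic anion transporter, had 1 astrocyte library far above the others: it was at 0.4, 0.0, 0.0 and 0.2 TPM in KO microglia and 49.7, 2.0, 1.6 and 1.2 TPM in KO astrocytes, and its KO difference of -2.25 (adjusted p = 0.0445) was -1.18 (adjusted p = 0.000353) without that library. The call was lost without KO microglia of mouse 1, 2, 3 or 4 (adjusted p of 0.068 to 0.0881), under quantile normalization (0.0974) and under median-of-ratios scaling (0.0538). Stat3, a mediator of cytokine signals, was reversed by small steps (0.60 to -0.52), a call lost on leaving out any of 5 of the 8 libraries (adjusted p up to 0.102), under quantile normalization (-0.28, 0.196) and under median-of-ratios scaling (-0.34, 0.126).

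Interferon-stimulated genes stood further on the microglial side in KO mice than in controls. Of 52 tested, 47 were higher in KO microglia (26.4% of all genes), 1 was lower and 4 did not pass. The median difference was 2.59 against 1.68 in controls. The contrast was positive for 26 (7.26% of all genes tested) and negative for 1, Lgals9. By class, 34 differences remained, 10 were new, 2 were reversed and 1 was lost. Ifitm2 (GRCm38 7:140954837-140955987, reverse strand), a membrane protein that restricts virus entry, was at 2024.0, 1884.5, 2139.3 and 2131.2 TPM in KO microglia and 431.0, 96.3, 412.1 and 189.0 TPM in KO astrocytes. In controls it was at 93.8, 67.5, 83.9 and 124.0 TPM in microglia, a difference of -0.75 toward astrocytes, while in KO mice the difference was 3.09 toward microglia. Oas2, which senses double-stranded RNA, was at 29.8, 34.7, 43.4 and 31.4 TPM in KO microglia and 0.4, 0.1, 0.6 and 0.4 TPM in KO astrocytes, a difference of 4.70 against 1.07 (contrast adjusted p = 2.32e-06). No KO astrocyte library reached 1 TPM for Oas2.

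The interferon response element was searched on both strands as GAAA, any 2 bases and GAAA again. It occurred in 3.49% of all promoters of 300 bases, in 23 of the 40 interferon-stimulated genes with a promoter in the table (57.5%) and in 10 of the 20 of these whose contrast was positive. Among the 241 new microglial genes with a promoter it occurred in 8.71%, and in 11.8% and 2.64% of the promoters of genes at least 5 units higher in KO microglia and in KO astrocytes. The interferon genes were chosen for their known response, so the share describes the list. The 4 promoters below, 250 bases before the start site, show the element in the listed genes with the most positive contrasts that hold it, the match in capitals (TTTC, any 2 bases and TTTC on the opposite strand): Ifitm2 at chr7:140955962-140956211 on the reverse strand, Rsad2 at chr12:26456453-26456702 on the reverse strand, Oas3 at chr5:120777660-120777909 on the reverse strand and Ifit3b at chr19:34607707-34607956 on the forward strand (GRCm38.p6). The match starts 46 bases before the start site in Ifitm2, 120 in Rsad2, 75 in Oas3, and 188 and 154 in Ifit3b.
Ifitm2: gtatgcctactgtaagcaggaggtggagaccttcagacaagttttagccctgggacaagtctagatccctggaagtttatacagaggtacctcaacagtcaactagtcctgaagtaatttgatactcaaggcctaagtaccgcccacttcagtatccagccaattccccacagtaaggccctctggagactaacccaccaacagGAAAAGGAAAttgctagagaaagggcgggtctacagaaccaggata
Rsad2: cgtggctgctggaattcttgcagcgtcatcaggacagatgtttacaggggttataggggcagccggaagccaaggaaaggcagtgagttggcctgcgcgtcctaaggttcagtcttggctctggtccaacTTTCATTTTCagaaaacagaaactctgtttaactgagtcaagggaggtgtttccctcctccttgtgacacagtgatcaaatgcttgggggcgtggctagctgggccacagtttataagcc
Oas3: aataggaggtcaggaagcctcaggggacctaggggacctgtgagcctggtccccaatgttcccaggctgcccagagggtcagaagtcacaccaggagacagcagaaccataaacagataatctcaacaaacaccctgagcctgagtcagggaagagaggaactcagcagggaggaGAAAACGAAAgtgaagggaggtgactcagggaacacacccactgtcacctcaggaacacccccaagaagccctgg
Ifit3b: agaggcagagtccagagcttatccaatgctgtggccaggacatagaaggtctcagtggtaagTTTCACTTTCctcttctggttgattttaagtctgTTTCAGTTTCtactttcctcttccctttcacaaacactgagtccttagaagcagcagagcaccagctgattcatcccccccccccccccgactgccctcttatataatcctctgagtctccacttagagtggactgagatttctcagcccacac

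Rsad2 encodes viperin, an antiviral enzyme, and stood at 62.9, 105.0, 139.6 and 74.7 TPM in KO microglia, 19.4, 26.5, 26.5 and 14.6 TPM in KO astrocytes and 8.1, 9.7, 7.7 and 6.3 TPM in control microglia, a KO difference of 2.06. Oas3, a relative of Oas2, stood at 4.7, 5.9, 10.8 and 2.8 TPM in KO microglia, 0.0, 0.0, 0.0 and 0.3 TPM in KO astrocytes and 0.3, 0.0, 0.1 and 1.0 TPM in control microglia, a KO difference of 2.6. Both differences were new in KO mice, and both genes are named because their promoters are shown. For Ifit3b a control difference toward astrocytes (-1.57) was lost, with 75.0, 118.1, 129.5 and 86.6 TPM in KO microglia, 103.8, 73.9, 70 and 37.7 TPM in KO astrocytes and 15.6, 9.6, 12 and 10 TPM in control microglia. Ifit3b is a close copy of Ifit3, so its reads are uncertain.

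Antigen presentation genes were on the microglial side without exception. All 22 MHC class I genes tested were higher in KO microglia (26.4% of all genes), with a median of 2.22 against 1.86 in controls. The contrast was positive for 7 (7.26% of all genes) and negative for 1 (8.7%). H2-K1, a classical class I molecule, was at 189.0, 215.9, 226.4 and 212.0 TPM in KO microglia and 22.6, 18.3, 21.9 and 15.6 TPM in KO astrocytes, a difference of 3.37 against 1.48 in controls. H2-Q7 had 4.42 against 1.86, but it shares reads with the near-identical H2-Q6. The 1 negative contrast was that of Psmb8, an immunoproteasome subunit (-1.01, adjusted p = 0.018; 0.053 with a block for the mouse). All 9 MHC class II genes tested were also higher in KO microglia, with a median of 4.82 against 5.49. The contrast was negative for 3: the peptide loading genes H2-DMa, H2-Oa and H2-Ob. The class II list summed to 6736.2 to 10405.5 TPM in KO microglia and 2671.6 to 5762.9 TPM in control microglia. In astrocytes it summed to 82.3 to 701.1 TPM in KO mice and 23.6 to 201.8 TPM in controls. H2-Oa, which restrains peptide loading, went from 6.92 to 2.57. For H2-DMa the contrast (adjusted p = 0.0324) was lost on leaving out any of 7 of the 17 libraries (adjusted p up to 0.0608), KO astrocytes of mouse 1 among them (0.0513).

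Chemokines, cytokines and complement were mostly microglial and moved in both directions. Of 32 chemokines and cytokines tested, 23 were higher in KO microglia and 9 in KO astrocytes, with medians of 3.51 and 3.31 in KO mice and controls; the contrast was positive for 9 and negative for 4. Ccl24, a chemokine for eosinophils, was at 267.4, 236.5, 248.1 and 257.7 TPM in KO microglia and 3.1, 0.1, 0.7 and 0.6 TPM in KO astrocytes, a difference of 7.08 against 3.71. Ccl9, a chemokine of myeloid cells, had a smaller difference in KO mice (3.60 against 7.86), as had the cytokine Il6 (1.76 against 4.64). Il33, an alarmin of astrocytes and oligodendrocytes, was at 2.0, 2.6, 1.0 and 1.8 TPM in KO microglia and 361.2, 423.2, 377.3 and 599.5 TPM in KO astrocytes, and its contrast did not pass (0.36, adjusted p = 0.457). Of 20 complement genes, 14 were higher in KO microglia, 5 in KO astrocytes and 1 did not pass. Of all genes tested, 26.4% were higher in KO microglia and 42.9% in KO astrocytes. The contrast was positive for 7.26% of them and negative for 8.7%. C2, a convertase subunit, was reversed toward KO microglia, from -1.56 to 1.27.

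Disease-associated microglial genes, a set that rises in microglia near plaques and lesions, split. Of 35 tested, 24 were higher in KO microglia, 8 in KO astrocytes and 3 did not pass; the median was 2.61 against 1.85, and the contrast was positive for 14 and negative for 7. Apoe and Axl were reversed toward KO microglia and Cd9 toward KO astrocytes, Cd63 and Fth1 lost their difference, and Ch25h and Igf1 were new. Among 37 genes of lipid and cholesterol handling, 15 were higher on each side and 7 did not pass, and the contrast was positive for 12 and negative for 2. The count higher in KO astrocytes was close to the share of all genes tested (42.9%), while 26.4% of all genes were higher in KO microglia. The contrast was positive for 7.26% of all genes and negative for 8.7%. Pltp, Plin2, Apoc2 and Ch25h were the new differences in that list, and Apoe and Apoc1 the reversed ones. Fabp5, a fatty acid carrier, remained higher in KO astrocytes by a smaller margin (-3.85 against -6.04).

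Cholesterol synthesis genes were mostly higher in KO astrocytes: of 22, 21 were higher in KO astrocytes (42.9% of all genes) and 1 in KO microglia. Their median was -3.07 against -3.46, and the contrast passed for 2 (16.0% of all genes). Sqle, which makes squalene epoxide, differed by -5.64, Hmgcs1, an early enzyme of the pathway, by -4.23, and Cyp51, which demethylates lanosterol, by -3.23 with 20.7, 18.4, 17.5 and 20.1 TPM in KO microglia and 176.5, 225.4, 166.3 and 190.8 TPM in KO astrocytes. Lysosomal genes were mostly higher in KO microglia: of 32, 24 were higher in KO microglia (26.4% of all genes), none was lower and 8 did not pass. The medians were 1.6 in KO mice and 1.57 in controls. The contrast was positive for 5 (7.26% of all genes) and negative for 6 (8.7%). The cathepsins moved apart. The difference of Ctsb was 2.96 in KO mice and 1.86 in controls, and that of Ctsd was 1.37 and 3.46.

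**Figure D4:**
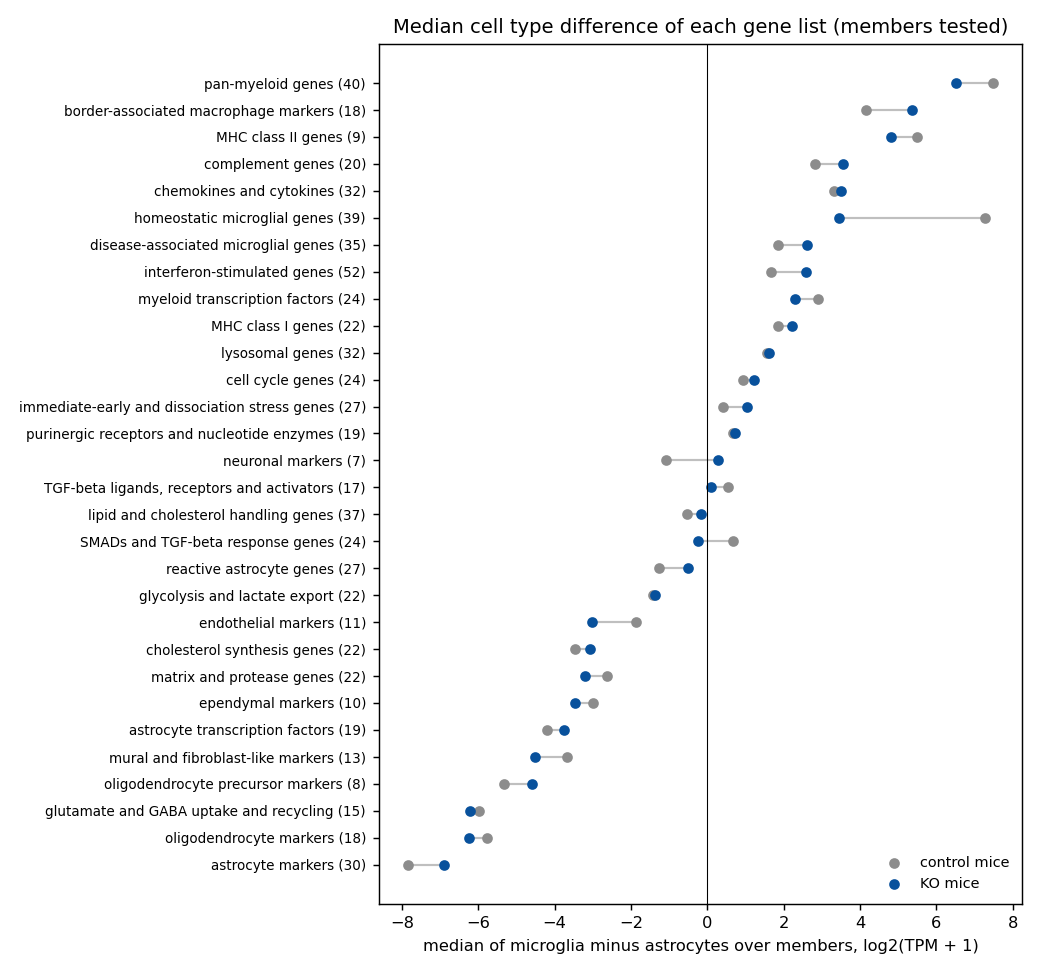
Median difference between microglia and astrocytes (log2, positive toward microglia) for each gene list with at least 5 tested genes, in control and in KO mice. Homeostatic microglial genes move from 7.28 to 3.45, interferon-stimulated genes from 1.68 to 2.59, and astrocyte markers from -7.84 to -6.89.

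The TGF-beta pathway had members on both sides. Of 17 ligand, receptor and activator genes tested, 8 were higher in KO microglia (26.4% of all genes), 7 in KO astrocytes (42.9% of all genes, a share close to that of the list) and 2 did not pass, and the contrast was positive for 2 (7.26% of all) and negative for 6 (8.7% of all). The other ligands Tgfb2 and Tgfb3 were higher in KO astrocytes, with differences of -4.22 and -2.15. Itgb8, the integrin chain that releases latent TGF-beta, was higher in KO astrocytes (-6.21), and its partner Itgav had a new difference toward astrocytes (-2.18 against -0.27). Nrros, which tethers latent TGF-beta1 to microglia, was at 180.9, 213.6, 229.0 and 171.6 TPM in KO microglia and 7.0, 15.4, 11.3 and 7.6 TPM in KO astrocytes, a difference of 4.19 against 2.33; its contrast (adjusted p = 0.0339) was lost on leaving out any of 7 of the 17 libraries (up to 0.069), KO astrocytes of mouse 1 among them (0.0661). Tgfbr1, the signalling receptor, was at 82.6, 92.6, 84.6 and 49.3 TPM in KO microglia and 7.0, 8.0, 7.0 and 8.4 TPM in KO astrocytes, against 448 ± 100 TPM (mean ± SD, n = 4) in control microglia, so that its difference went from 6.11 to 3.15.

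Among 24 SMADs and TGF-beta response genes, 8 were higher in KO microglia (26.4% of all genes), 11 in KO astrocytes (42.9% of all genes) and 5 did not pass. Their median was -0.24 against 0.67 in controls. The contrast was negative for 7 (8.7% of all genes tested) and positive for none. Skil, a feedback repressor of SMADs, went from 4.09 to 1.67. Pmepa1, a TGF-beta induced inhibitor of the pathway, went from 3.53 to 0.47, and that KO difference (adjusted p = 0.0361) did not pass with a block for the mouse (0.0576) or on leaving out any of 5 of the 8 libraries (up to 0.0842). Ldlrad4, a further inhibitor, lost its difference (1.96 to -0.51, KO adjusted p = 0.101; -0.68 and 0.0362 without KO astrocytes of mouse 2). Smad7 and Bmpr2 were reversed toward astrocytes, and Smurf1 lost its difference.

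Reactive astrocyte genes were on both sides, with 12 of 27 higher in KO microglia (26.4% of all genes), 14 in KO astrocytes (42.9% of all genes) and 1 not passing. Serpina3n, a protease inhibitor of reactive astrocytes, was at 0.5, 0.2, 0.0 and 0.1 TPM in KO microglia and 13.5, 22.4, 22.9 and 23 TPM in KO astrocytes, and its difference of -4.15 was -4.35 in controls. Cd44, a hyaluronan receptor, had a new difference toward KO microglia at low levels, 2.6, 3.0, 2.7 and 2.2 TPM against 1.6, 1.1, 1.1 and 1.0 TPM. Purinergic genes were divided, with 10 higher in KO microglia (26.4% of all genes) and 9 in KO astrocytes (42.9%, a share close to that of the list). P2rx4, an ATP-gated channel, had a larger difference in KO mice (2.88 against 1.29) and the adenosine receptor Adora3 a smaller one (6.36 against 8.52). Entpd1, which degrades ATP to AMP, kept 4.64 against 5.64, a contrast (adjusted p = 0.0466) that was lost on leaving out any of 13 of the 17 libraries (up to 0.101).

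Of 22 matrix and protease genes, 8 were higher in KO microglia and 14 in KO astrocytes. Of all genes tested, 26.4% were higher in KO microglia and 42.9% in KO astrocytes. Serpine2, an inhibitor of thrombin, was at 39.6, 30.0, 29.5 and 26.2 TPM in KO microglia and 1064.7, 1923.6, 1524.2 and 1073.0 TPM in KO astrocytes, against 1265.5, 1333.2, 1390.2 and 1217.8 TPM in control microglia, and its difference widened from -0.54 to -5.40. Of 22 genes of glycolysis and lactate export, 18 were higher in KO astrocytes, 3 in KO microglia and 1 did not pass. The glucose isomerase gene Gpi1 was at 236.5, 271.6, 257.2 and 252.0 TPM in KO microglia and 296.2, 374.2, 331.9 and 271.5 TPM in KO astrocytes, and its difference was -0.31 against -1.46 in controls, a KO call (adjusted p = 0.0314) lost on leaving out any of 5 of the 8 libraries (up to 0.0843), under quantile normalization (-0.25, 0.093) and under median-of-ratios scaling (-0.13, 0.339). The lactate dehydrogenase gene Ldhb widened from -0.68 to -2.96.

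Cell cycle genes were higher in KO microglia for 17 of 24 tested (26.4% of all genes), lower for 2 and not passing for 5, with a positive contrast for 4 (7.26% of all genes) and a negative one for none (8.7%). Cdk1, the kinase that starts mitosis, was at 20.1, 24.4, 14.1 and 23.5 TPM in KO microglia and 0.9, 0.8, 1.2 and 1.7 TPM in KO astrocytes, with 13.7, 5.4, 6.7 and 7.9 TPM in control microglia and no contrast that passed (0.38, adjusted p = 0.534). Mki67, a marker of dividing cells, was at 1.0, 1.8, 1.2 and 1.2 TPM in KO microglia and 0.1, 0.0, 0.2 and 0.2 TPM in KO astrocytes, close to the filter, and its contrast (adjusted p = 0.0359) did not pass with a block for the mouse (0.109) or on leaving out any of 8 of the 17 libraries (up to 0.08). Of 27 genes of the immediate-early and stress response, 15 were higher in KO microglia (26.4% of all genes), 3 were lower (42.9% of all genes) and 9 did not pass.

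Markers of oligodendrocytes, their precursors and vessels were mostly higher in KO astrocytes, and the few tested markers of blood cells were not. As background, 42.9% of all genes tested were higher in KO astrocytes and 26.4% in KO microglia. Of 18 oligodendrocyte markers 17 were higher in KO astrocytes and 1, transferrin (Trf), did not differ at the threshold (0.01, adjusted p = 0.972). Without Trf the other 17 summed to 80.4 to 123.7 TPM in KO microglia, 7804.7 to 20755.2 TPM in KO astrocytes and 5482.8 to 8253.8 TPM in control astrocytes. All 8 precursor markers, 11 of 11 endothelial and 13 of 13 mural and fibroblast-like markers were higher in KO astrocytes, with endothelial medians of -3.02 against -1.87 in controls. Of 10 ependymal markers 8 were higher in KO astrocytes, and of 15 neuronal markers, 7 of them tested, 3 were higher in KO astrocytes and 1 in KO microglia. Esam, an endothelial adhesion molecule, was at 83.3, 6.6, 90.6 and 32.0 TPM in KO astrocytes and 3.3, 0.0, 1.3 and 0.4 TPM in KO microglia. Pdgfrb, the growth factor receptor of pericytes, was at 27.8, 11.3, 43.8 and 21.6 TPM in KO astrocytes and 0.0 to 0.2 TPM in KO microglia. Both varied with the mouse, mice 1 and 3 being the highest. Whether cells of these types set the level of a given gene in KO astrocytes was not tested.

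Most markers of blood cells were below the filter: 7 of 10 monocyte, 8 of 10 neutrophil and 11 of 13 lymphocyte markers. All 3 tested monocyte markers, both neutrophil markers and 1 of 2 lymphocyte markers were higher in KO microglia (26.4% of all genes), and none was lower. The monocyte markers summed to 48.0 to 58.0 TPM in KO microglia, 2.7 to 15.8 TPM in KO astrocytes and 8.0 to 15.3 TPM in control microglia, the neutrophil markers to 11.6 to 13.8, 0.3 to 2.5 and 28.1 to 71.6 TPM, and the lymphocyte markers to 85.0 to 98.1, 0.8 to 5.0 and 86.0 to 125.2 TPM. The monocyte sum in KO microglia was thus above that of control microglia, and the neutrophil sum below it. The tested neutrophil markers did not move together: the contrast was negative for Csf3r and positive for Il1r2. Whether these sums came from blood cells, and what such cells contribute to the differences between KO microglia and KO astrocytes, was not tested. Ms4a4c, of the MS4A family, was at 20.8, 24.1, 27.9 and 26.5 TPM in KO microglia and 0.8, 0.2, 0.3 and 0.2 TPM in KO astrocytes, against 3.7, 1.9, 1.7 and 3.2 TPM in control microglia, a difference of 4.24 against 1.82 (contrast 2.43, adjusted p = 5.16e-06). Itga4, an integrin chain of leukocytes, was at 22.5, 24.2, 26.3 and 28.4 TPM in KO microglia and 5.8, 1.0, 10.2 and 5.0 TPM in KO astrocytes, against 0.2, 0.3, 1.3 and 1.6 TPM in control microglia, and its difference was reversed, from astrocytes in controls to microglia (2.26) in KO mice (contrast 3.25). Cd79b, a chain of the B cell receptor complex, made up most of the lymphocyte sum, at 80.7, 91.6, 74.5 and 83.4 TPM in KO microglia and 101.9, 92.1, 93.2 and 74.5 TPM in control microglia. Ccr2, the chemokine receptor of inflammatory monocytes, was the one tested monocyte marker with a negative contrast (-1.99), with a difference of 0.84 in KO mice and 2.84 in controls, and the KO difference (adjusted p = 0.0327) did not pass with a block for the mouse (0.0542) or on leaving out any of 4 of the 8 libraries (up to 0.0854).

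**Figure D5:**
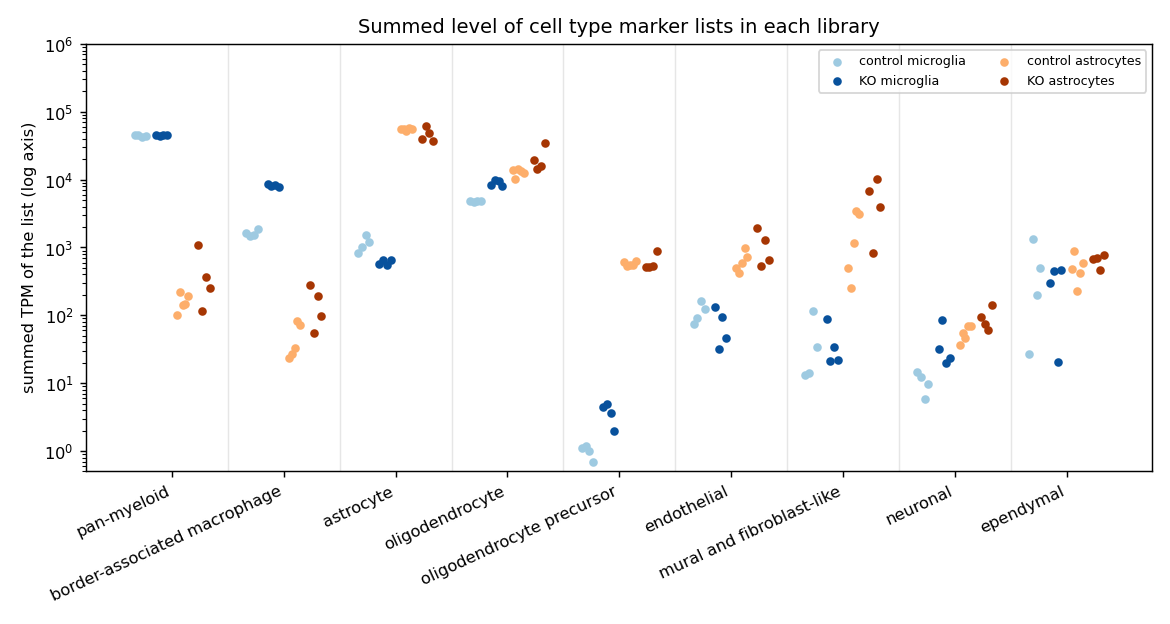
Summed TPM of 9 marker lists on a log axis, one point per library, in microglia and astrocytes of control and KO mice. Mural and fibroblast-like markers run from 830.5 to 10395.8 TPM in KO astrocytes and oligodendrocyte markers from 14179.5 to 35179.0 TPM, while border-associated macrophage markers in KO microglia (7873 to 8679 TPM) lie above those in control microglia.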

How the data were processed

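RNA was sequenced as paired reads of 61 bp from microglia and astrocytes sorted from the same mice, and each library came as 1 table of 35869 genes. The authors deposited TPM values with 1 decimal, so levels under 0.05 are listed as 0; the total count behind them is not given, the depth is unknown, and no counting interval or limit is printed. Per the submitters' processing notes, Trim Galore 0.4.2, cutadapt 1.9.1, STAR 2.6.1e, featureCounts 1.6.2 and mm10 were used; their roles, the annotation, strand and treatment of multiply mapped reads are not given in the sources used here, so overlapping and near-identical genes are uncertain.

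Log2(TPM + 1) values were fitted with limma 3.58.1 (R 4.3.3), using a trend of the variance with the level, two-sided tests and Benjamini-Hochberg adjustment over all genes tested and a threshold of 0.05. The fits held 8 KO libraries, 9 control libraries, or all 17 for the contrast between genotypes; a gene needed 1 TPM in 4 libraries of the fit. A fold change on this scale understates the change of low genes. The self-test on simulated data preceded the fits. Control microglia came from mice 1, 2, 4 and 5 and control astrocytes from mice 1 to 5; 1 library with conflicting labels was left out.

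Libraries with the same number came from 1 mouse per the labels, so the numbers pair the samples. Their deviations from the group means correlated with r of 0.126, 0.0994, 0.132 and 0.0178 in KO mice 1 to 4 and of 0.0895, 0.109, 0.219 and 0.154 in the 4 control mice with both types. The fit had no block for the mouse, and the fit with it is given where it changes a call.

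The members, gene lists (33 lists, 718 genes, of which 630 were tested) and tests were chosen with earlier results of these data known. Named genes were the 4 markers and Tgfb1 and, for called genes averaging 5 TPM or more in the group where they are high, with groups that do not overlap, the 8 largest KO differences, the 8 new, 6 lost and 6 reversed differences with the largest contrast and 4 remaining ones per side, with up to 4 genes of each list by the KO test and 3 by the contrast. A gene named outside this rule, to complete a small count or beside its promoter, was chosen after its values were seen. Some genes that the rule names are not reported here and are left out of the counts over named genes. Promoters came from RefSeq (GRCm38.p6) and gene positions from GENCODE M21 (GRCm38). The alternatives were another pseudocount, filter, threshold or minimum difference, quantile normalization, median-of-ratios scaling, no variance trend, array weights, 1 fit over 17 libraries, the block for the mouse, leaving out each library, leaving out KO mice 1 and 3, and using only controls with, or only controls without, Xist RNA.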

Additional observations from a re-analysis of the deposited data

Results flagged for a closer look

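For 47 of the 60 genes at the head of the comparison, the limma contrast between KO and control mice over 17 libraries passed. The new, lost and reversed genes among them were chosen because that contrast passed and was large, so the count follows from the choice. Of all genes tested in KO mice, the contrast passed for 16.0%. The log2 contrasts of the 47 genes follow. Toward KO microglia the new genes had contrasts of 6.33 for Mmp13, 5.02 for Mir511, 4.97 for Cfp, 4.63 for Dnase1l3, 4.55 for Aoah, 4.52 for Cd300ld2, 3.99 for Dok2 and 3.77 for Cd300ld5. Where an astrocyte difference was lost, the contrasts were 4.15 for Cd38, 4.09 for Vcam1, 4.08 for Sdc4, 3.72 for Plk2, 3.34 for Hs3st1 and 3.18 for Sema4a. Reversals toward KO microglia had 4.46 for Mir7011, 4.07 for Fos, 3.84 for Ifitm2, 3.75 for Shcbp1, 3.66 for Axl, 3.64 for Apoc1 and 3.16 for Apoe. Contrasts of differences that remained were 2.23 for Ms4a4a, 2.12 for Clec4a1, 1.56 for Aldoc, 1.31 for Agt and 0.93 for Slc1a2. For Slc1a2 the contrast did not pass without KO microglia of mouse 1 (adjusted p = 0.0503) or mouse 2 (0.0504), or KO astrocytes of mouse 4 (0.0522).

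Away from KO microglia, the new genes had contrasts of -4.76 for Adgrg1, -3.88 for Sgk1, -3.62 for Nupr1, -3.60 for Ctnnal1, -3.51 for Spsb1, -2.78 for Klhl23, -2.67 for Usp2 and -2.58 for Arhgap5. Lost microglial differences had -6.92 for Ecscr, -6.87 for Cd34, -5.54 for Tgm2, -5.22 for Il7r, -4.75 for Klk8 and -4.69 for Mlph. Reversals toward KO astrocytes had -6.04 for Sparc, -5.70 for Slco4a1, -4.98 for Tmem204, -4.55 for Gal3st4 and -4.17 for Lhfpl2. Plpp3 had -1.05 and Tgfb1 -0.71.

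Single libraries stood apart from the other 3 of their group for 14 of 120 gene and group pairs and for 3 of 66 list and group pairs. The cutoff flags about 1 in 20 only for independent, normally distributed values. The pairs share the same libraries and some levels lie near the listed floor, so these counts cannot be compared with that rate. In KO microglia of mouse 1 these were Ccl12 (8300.8 TPM), Sparc (78.9 TPM), Cd34 (15.1 TPM), Atp1b2 (15.7 TPM) and Il7r (0.7 TPM). In KO astrocytes of mouse 1, the library with the most myeloid RNA, they were Ccl12 (125.5 TPM), Mmp13 (8.9 TPM), Dnase1l3 (1.3 TPM), Slco4a1 (49.7 TPM) and, on the low side, Htra1 (938.3 TPM). In KO microglia of mouse 3 they were Axl (49.2 TPM) and Dnase1l3 (45.5 TPM), and in KO astrocytes of mouse 4 Sgk1 (330.0 TPM) and Cd300ld5 (0.3 TPM). Among summed lists, purinergic genes came to 1918.3 TPM in KO microglia of mouse 4, oligodendrocyte precursor markers to 894.5 TPM in KO astrocytes of mouse 4, and lymphocyte markers to 0.8 TPM in KO astrocytes of mouse 2.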

How the results depend on the processing

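No named KO difference that passed, as reported or under an alternative, turned sign. Of those that passed in neither, Plk2, Sall1, Sdc4, Cd38 and Ecscr did so in 9 cases. Over the named genes and alternatives, the KO difference stayed on its side of the threshold in 4129 cases, fell short of it in 59 and newly passed in 16; the contrast stayed in 6265, fell short in 204, newly passed in 81 and turned sign with a call in 1, Clec4a1, from 2.12 to -0.29 (adjusted p = 0.889) with a pseudocount of 0.1 TPM. Contrasts of 39 named genes turned sign in 149 further cases, without passing as reported or under that alternative. The cause of the changes was not tested, except where fewer libraries, a stricter threshold or a minimum size call fewer genes by construction.

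Genes new in KO astrocytes, 270 as reported, numbered 157 with quantile normalization, 179 with median-of-ratios scaling, 128 at an adjusted p under 0.01 and 130 with a difference of at least 1. Without KO mice 1 and 3 they numbered 85, genes new in KO microglia 193, reversals 31 toward microglia and 43 toward astrocytes, and passing contrasts 1363 in place of 2648. Of the 7987, 621, 604 and 149 genes that remain, are new, lost or reversed, 6478, 271, 292 and 70 kept their class there. Contrasts that no longer passed without these mice included those of Tgfb1 (adjusted p = 0.102), Irf5 (0.0674), Psmb8 (0.221), Tgfb3 (0.137), Fabp5 (0.065), Agt (0.0878), Plpp3 (0.131) and Gfap (0.252), and KO differences that did so were those of Apoc1 (0.0715), Stat3 (0.0637), Pmepa1 (0.322), Ccr2 (0.263), Syn1 (0.0526) and Gpi1 (0.328), beside that of Gal3st4. The controls that have Xist RNA match the KO mice in sex. With only these controls, 6590 genes differed between control cell types and 294 microglial differences were lost. Reversals numbered 27 toward microglia and 53 toward astrocytes. Genes that kept their class as remaining, new, lost or reversed numbered 5599, 330, 319 and 65. Among named genes, 18 contrasts no longer passed and 7 newly passed. With only the controls without Xist RNA, 7435, 406, 429 and 110 genes kept their class. There, 16 named contrasts no longer passed and 2 newly passed. Both fits held fewer control libraries. At an adjusted p under 0.01, 1455 contrasts passed, 91 astrocyte differences were lost, and 24 and 38 were reversed. With a difference of at least 1, 7064 KO differences were called, 2602 of them toward microglia, 1670 contrasts passed, and 15 and 21 were reversed. Array weights gave 146 reversals toward astrocytes. Of the genes that remain, are new, lost or reversed, 7056, 425, 389 and 75 kept their class under quantile normalization. Under median-of-ratios scaling 7599, 510, 471 and 110 did.

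With a block for the mouse, 10605 KO differences and 2399 contrasts passed and 7746 differences remained; 330 and 226 were new in KO microglia and astrocytes, 398 and 150 lost, and 53 and 102 reversed. Of the classes reported, 7532, 453, 453 and 122 genes kept theirs. Beyond the calls given beside the genes, the contrasts of Plpp3 (adjusted p = 0.0516), Man2b1 (0.0562), Bcan (0.0727), Mag (0.058) and Olig1 (0.0654) no longer passed, and the block changed no other call of a named gene.

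Leaving out single libraries gave 10111 to 10510 KO differences, 9530 to 9954 control differences and 2203 to 2726 contrasts, with 7682 to 7975 remaining, 306 to 372 and 196 to 291 new, 371 to 452 and 124 to 165 lost, and 44 to 57 and 76 to 102 reversed.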
